A study of Mus musculus with 32 samples.

Results

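Imprinted genes are expressed mainly from the copy inherited from one parent. They sit in clusters, each governed by a stretch of DNA (an imprinting control region) that carries 5-methylcytosine (5mC) on the copy from one parent and not on the other, and these marks are kept in somatic tissue. Loci at which only the copy from the mother is methylated at the germline mark include Peg3, Kcnq1ot1, Snrpn, Mest, Zrsr1, Nap1l5, Grb10 and Plagl1, whereas the H19-Igf2, Dlk1-Meg3 and Rasgrf1 loci are methylated on the copy from the father. The 41 genes described here were taken by symbol from a table of 27179 genes, and all 41 were in it. They fall into 19 imprinted domains, 9 of which hold several members (31 genes) and 10 of which hold 1.

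The table comes from a study of multiomic profiling in preserved mouse tissue. Brain, heart, kidney and liver of mice were either flash frozen or fixed in 10% formalin and embedded in paraffin (FFPE), and DNA was enriched by methylated DNA immunoprecipitation sequencing (MeDIP-seq), in which an antibody to 5mC pulls down methylated single-stranded fragments. The labels list 32 samples, 2 for each organ, preservation and antibody (5mC or input). The table has 8 columns, 1 per organ and preservation, whose names give neither antibody nor replicate; they were read here as the 5mC signal. All groups are untreated organs, and the labels give neither strain nor age nor sex, and nothing says that samples came from separate animals. The 8 columns are called libraries below, although whether each holds 1 sample or both replicates of its group is not stated. Each is a whole organ, so the share of cells that carry a mark and the amount of the mark per cell cannot be told apart, and reads are not assigned to a parental copy, so imprinting itself could not be checked.

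Values are reads scaled to library size (CPM) or log2 CPM as deposited. The read counts behind them were recovered as whole numbers and sum to between 2164158 and 3699218 per library, and 3 reads correspond to between 0.876 and 1.42 CPM. Frozen kidney stood apart with 2999 genes at 0 reads, against 880 to 2380 in the other libraries, and with 56.2% even values among counts of 1 to 20, against 48.7% to 51.8%. The deposited log2 values also spread more widely in liver (SD over genes 2.74 and 2.81) and frozen kidney (2.91) than in brain (2.07 and 2.35). As a check of the organ labels, the 5mC signal of 7 of 8 hepatocyte genes was lower in liver than in the other organs (7.42% of all tested genes). That of 6 of 8 neuronal genes was lower in brain (12.8%) and that of 4 of 8 cardiomyocyte genes was lower in heart (1.97%). The same markers also passed elsewhere, with 4 hepatocyte genes higher in brain, and 4 cardiomyocyte and 3 neuronal genes higher in liver. In addition, 1 neuronal gene was higher in kidney and 1 cardiomyocyte gene was lower in brain. None of 8 kidney tubule genes passed the test in kidney, where their median log2 difference was 0.01.

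The imprinted genes carried more signal than the typical gene in every library. Their median log2 CPM lay between 5.59 (frozen heart) and 6.57 (frozen liver), against 3.90 to 4.28 over all genes, and together they held 0.332% to 0.460% of the reads. Gene span contributes to such a level, so members under 5 kb long were compared with other short genes per kilobase of span. Among 12 such members, 9 lay above the upper quartile (6.99 CPM per kb) of 4564 protein-coding genes of that size, whose median was 3.07 CPM per kb. Nap1l5, which encodes a nucleosome assembly protein-like factor, led with 39.4 CPM per kb, followed by the splicing-factor retrogene Zrsr1 (32.4 CPM per kb) and Cdkn1c, an inhibitor of cyclin-dependent kinases (28.5 CPM per kb). H19, Magel2, Nnat, Ndn, Peg12 and Mkrn3 ranged from 20.4 down to 8.24 CPM per kb. Below the median were the 2 genes Ascl2 (1.42 CPM per kb) and Phlda2 (0.189 CPM per kb). Span includes introns, and whether reads in introns were counted is not stated, so genes with and without introns may not be comparable here. Commd1, which spans 84.8 kb, had 76 reads in all, against 3271 for Zrsr1 inside it, which spans 4.49 kb. The part of gene structure in this ranking was not tested. H19 is a noncoding RNA, unlike the genes it was ranked against.

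**Figure D1:**
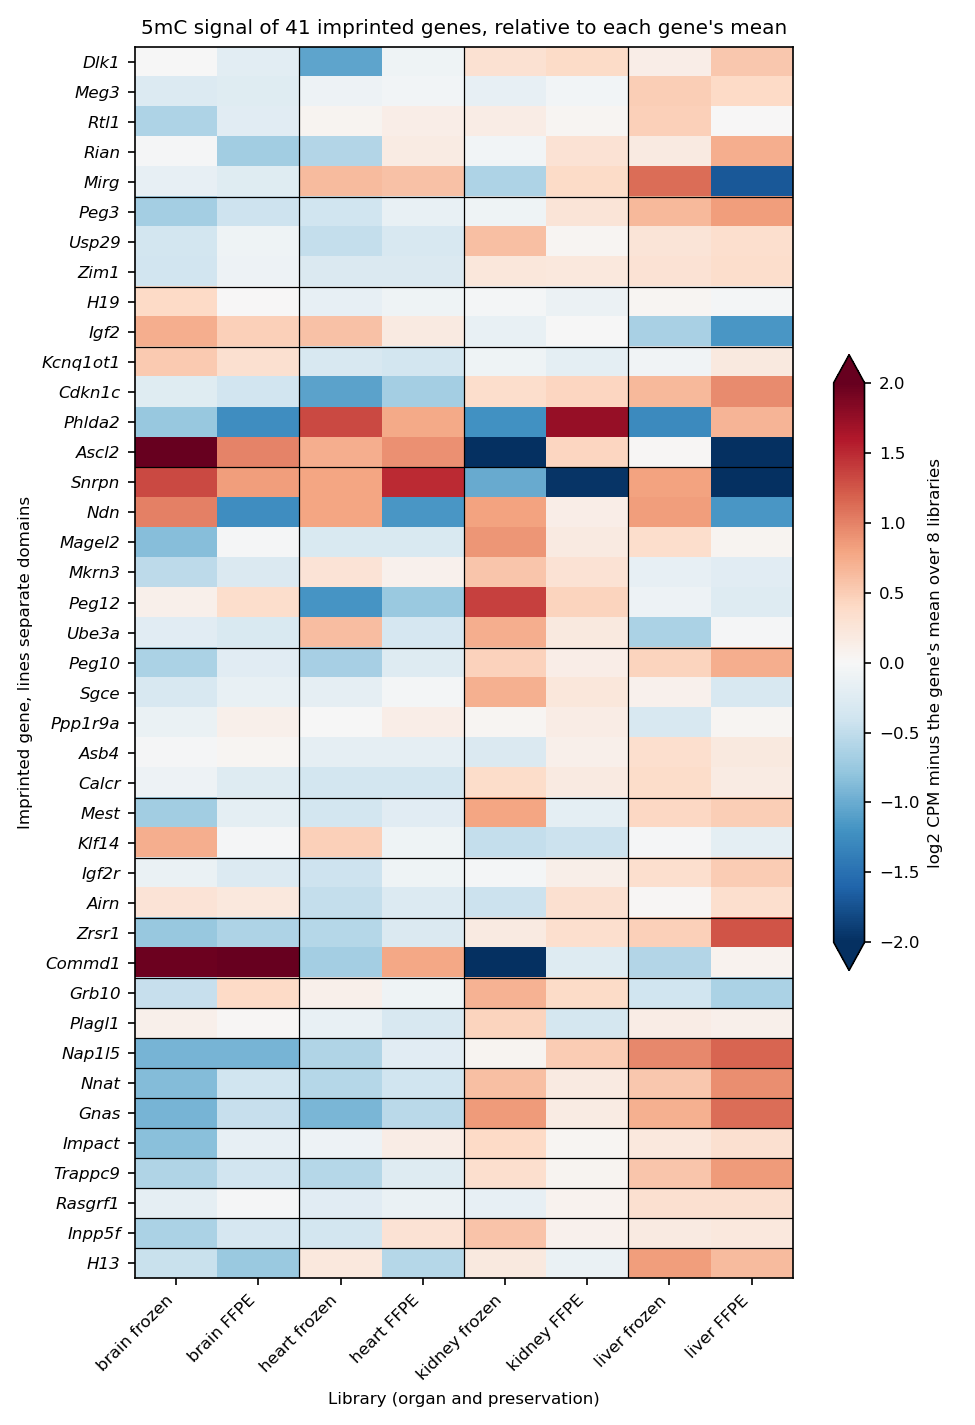
The deposited log2 CPM of each of the 41 imprinted genes (rows, grouped by domain) in the 8 libraries (columns), minus the mean of that gene over the 8 libraries. Colours run from blue (below the mean) to red (above it) and saturate at 2. The rows of Zrsr1, Nap1l5, Nnat, Gnas and Trappc9, which are not all adjacent, are red in both liver libraries and blue in both brain libraries.

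Liver and brain each stood apart in 14 members, most of those in liver being higher and most of those in brain lower. With limma, fitting organ and preservation together over the 8 libraries and adjusting p-values by Benjamini-Hochberg over all 25982 tested genes, 12 of 40 tested members were higher in liver than the mean of the other 3 organs (11.8% of all tested genes) and 2 were lower (7.42%). In brain the counts were 3 higher (8.61%) and 11 lower (12.8%). Heart had 0 higher (0.162%) and 4 lower (1.97%), and kidney had 1 higher (0.897%) and 0 lower (0.566%). Without adjustment, the counts with p under 0.05 were 21 members in liver, 20 in brain, 15 in heart and 15 in kidney. The remaining member, Phlda2, had too few reads to be tested. In all, 21 members passed in at least 1 comparison and 19 in none.

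The median member differed from the other organs by 0.34 log2 in liver, against -0.10 over all tested genes. In brain the members' median was -0.31 (all genes 0.11), in heart -0.27 (0.07) and in kidney 0.28 (-0.02). Each organ is set against the other 3, so a gene that is high in liver is pushed down in the other contrasts, and opposite signs in liver and brain are not independent of each other. Both liver libraries lay above all 6 others for 11 members (11.7% of all tested genes) and below them for 1 (10.3%). Both brain libraries lay above all others for 3 members (16.5%) and below for 7 (11.7%), both heart libraries above for 0 (4.78%) and below for 4 (3.47%), and both kidney libraries above for 3 (3.53%) and below for 1 (4.38%).

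**Figure D2:**
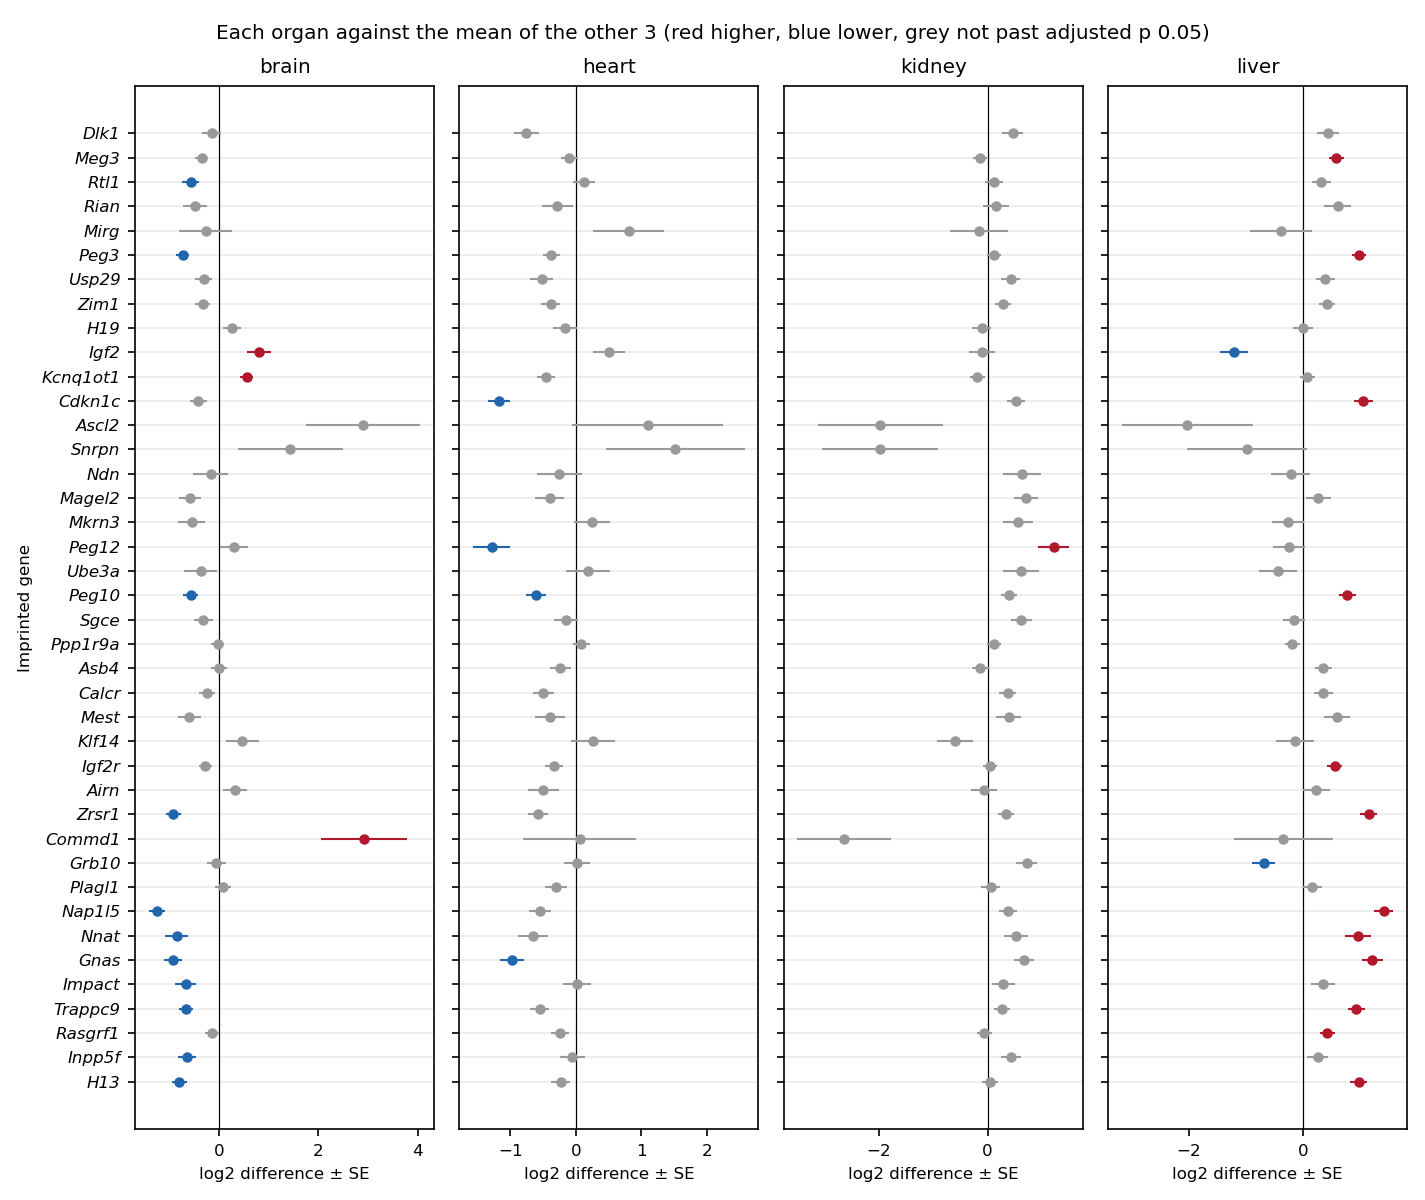
The log2 difference of each tested imprinted gene between 1 organ and the mean of the other 3 (x axis, separate scale per panel), with bars of 1 SE from limma, in brain, heart, kidney and liver. Red marks an adjusted p under 0.05 and higher, blue the same and lower, and grey the rest; most of the red points are in the liver panel (12) and most of the blue in the brain panel (11).

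Of the 40 tested members, 8 were both higher in liver and lower in brain (7.86% of all tested genes): Peg3, Peg10, Zrsr1, Nap1l5, Nnat, Gnas, Trappc9 and H13. They lie in 8 different domains on several chromosomes. Nap1l5 (chr6:58905233-58907126, GRCm38) had 33.8 and 33.7 CPM in frozen and FFPE brain, 42.5 and 55.2 in heart, 67.1 and 92.2 in kidney, and 126 and 145 in liver. Its 2 brain libraries were the lowest and its 2 liver libraries the highest, with no overlap with the organs between. The log2 difference was 1.42 ± 0.17 (SE) in liver (limma, adjusted p = 7.33e-05) and -1.24 ± 0.17 in brain (adjusted p = 0.000238).

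Zrsr1 (chr11:22972005-22976496) had 77.5 and 85.1 CPM in frozen and FFPE brain, 88.1 and 106 in heart, 148 and 164 in kidney, and 182 and 312 in liver. The order brain, heart, kidney, liver held in both preservations. Zrsr1 differed by 1.15 ± 0.15 log2 (SE) in liver and by -0.91 ± 0.15 in brain (limma, adjusted p = 0.00015 and 0.000935). Peg3 (chr7:6703892-6730462), a zinc finger transcription factor, had 127 and 154 CPM in frozen and FFPE brain, 154 and 183 in heart, 192 and 244 in kidney, and 319.6 and 363 in liver. Again both liver libraries were above every other library and both brain libraries were at the bottom, frozen heart (154 CPM) lying next to FFPE brain (154 CPM). Its log2 differences were 0.99 ± 0.13 in liver and -0.73 ± 0.13 in brain (SE; limma, adjusted p = 0.000119 and 0.00115).

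Gnas (chr2:174284320-174346744), which encodes the alpha subunit of the stimulatory G protein, had 128 and 177 CPM in frozen and FFPE brain, 129.5 and 167 in heart, 437 and 274 in kidney, and 401 and 528 in liver. The 2 brain and 2 heart libraries shared 1 range and frozen kidney lay between the 2 liver libraries, so liver did not stand clear of kidney. Gnas differed by 1.22 ± 0.18 log2 (SE) in liver (limma, adjusted p = 0.000338), by -0.93 ± 0.18 in brain and by -0.97 ± 0.18 in heart. Peg10 (chr6:4747306-4760517), a retrotransposon-derived gene, had 159 and 211 CPM in frozen and FFPE brain, 156 and 206 in heart, 339 and 271 in kidney, and 334 and 408 in liver. It showed the same arrangement, with brain and heart overlapping and frozen kidney level with frozen liver, and passed in liver (0.78), brain (-0.57) and heart (-0.61). Nnat (chr2:157560078-157562525), a small membrane proteolipid of the nervous system, had 19.2 and 26.6 CPM in frozen and FFPE brain, 23.5 and 26.6 in heart, 53.7 and 39.7 in kidney, and 51.1 and 67 in liver. Frozen kidney exceeded frozen liver here too, and the log2 differences were 0.98 in liver and -0.85 in brain.

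Trappc9 (chr15:72589620-73061238), a subunit of a vesicle trafficking complex, had 134 and 156 CPM in frozen and FFPE brain, 137 and 169.5 in heart, 257 and 211 in kidney, and 299 and 368 in liver. Liver was highest without overlap, and brain and heart shared a range (log2 difference 0.94 in liver and -0.65 in brain). H13 (chr2:152669422-152708668), which encodes the signal peptide peptidase, had 88.8 and 72.6 CPM in frozen and FFPE brain, 141 and 81.8 in heart, 139 and 111 in kidney, and 217 and 188 in liver. Both liver libraries were above the others, and FFPE heart fell inside the brain range (log2 difference 0.98 in liver and -0.79 in brain).

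**Figure D3:**
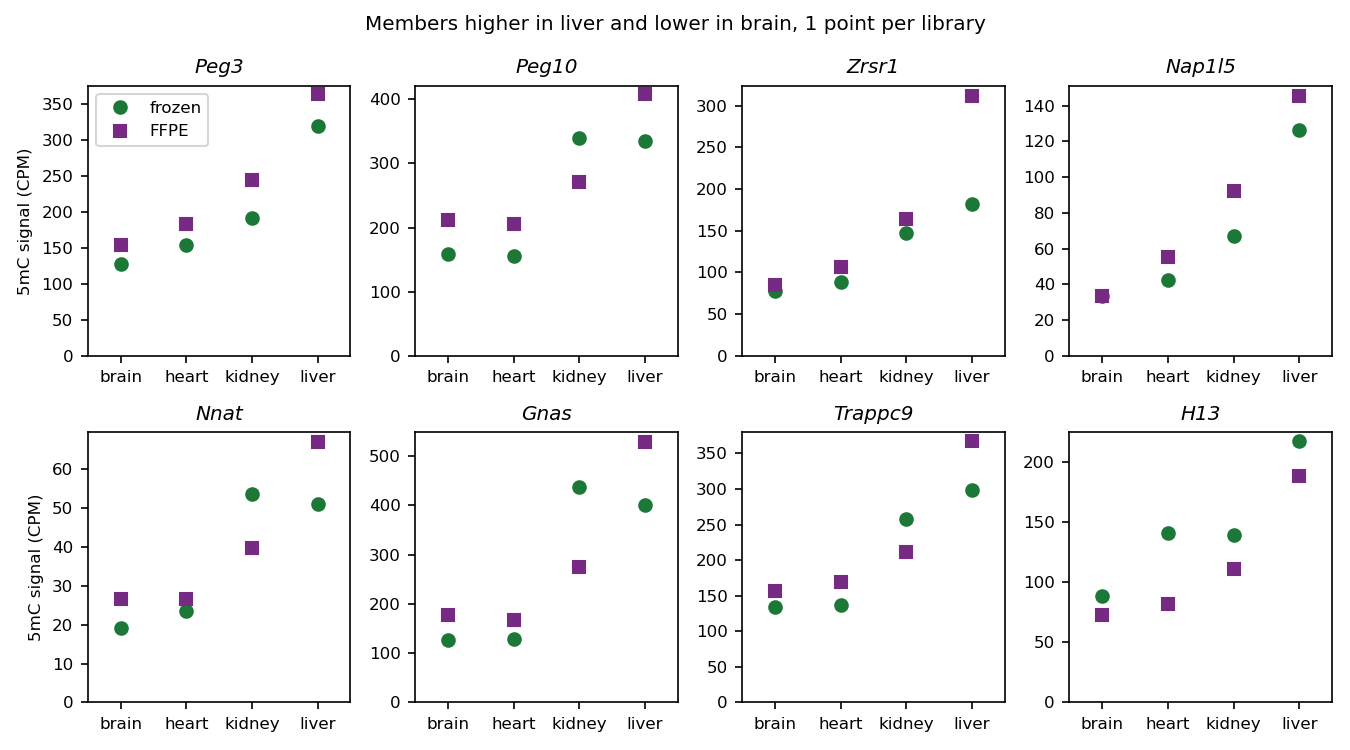
The 5mC signal in CPM (y axis from 0, separate scale per panel) of the 8 imprinted genes that were higher in liver and lower in brain, by organ (x axis), with 1 point per library, frozen as circles and FFPE as squares. In each panel the liver points are at or near the top and the brain points at or near the bottom, for example 126 and 145 CPM in liver and 33.8 and 33.7 CPM in brain for Nap1l5.

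The sequence just before the start is shown for 3 of these genes, which were picked by their calls in liver and brain. It is shown with that of Ndn, the only member that differed between FFPE and frozen tissue. RefSeq promoters (GRCm38.p6) were matched for 33 of the 41 members, with 50 starts in all. The 250 bases upstream of each start are written 5′ to 3′ along the strand of the gene, with every CpG, the dinucleotide at which 5mC mainly occurs in mammals, in capitals. The windows are Nap1l5 at chr6:58907127-58907376 (minus strand, 10 CpG), Zrsr1 at chr11:22971755-22972004 (plus strand, 8 CpG), Gnas, at the most upstream of its starts, at chr2:174284070-174284319 (plus strand, 14 CpG) and Ndn at chr7:62348027-62348276 (plus strand, 5 CpG).
Nap1l5: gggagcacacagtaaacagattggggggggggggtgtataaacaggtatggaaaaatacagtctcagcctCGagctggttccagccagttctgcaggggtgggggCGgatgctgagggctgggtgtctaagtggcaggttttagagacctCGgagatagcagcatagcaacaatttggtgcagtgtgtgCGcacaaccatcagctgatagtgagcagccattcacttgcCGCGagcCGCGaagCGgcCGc
Zrsr1: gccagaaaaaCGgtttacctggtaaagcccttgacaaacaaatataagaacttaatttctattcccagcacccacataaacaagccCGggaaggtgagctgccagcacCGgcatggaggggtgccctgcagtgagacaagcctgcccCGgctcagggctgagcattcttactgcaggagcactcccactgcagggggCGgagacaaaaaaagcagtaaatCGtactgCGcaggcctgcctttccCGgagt
Gnas: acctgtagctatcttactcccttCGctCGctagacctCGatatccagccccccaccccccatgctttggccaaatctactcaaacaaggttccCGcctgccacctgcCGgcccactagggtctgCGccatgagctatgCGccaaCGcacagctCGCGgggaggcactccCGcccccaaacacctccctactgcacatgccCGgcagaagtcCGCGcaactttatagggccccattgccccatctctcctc
Ndn: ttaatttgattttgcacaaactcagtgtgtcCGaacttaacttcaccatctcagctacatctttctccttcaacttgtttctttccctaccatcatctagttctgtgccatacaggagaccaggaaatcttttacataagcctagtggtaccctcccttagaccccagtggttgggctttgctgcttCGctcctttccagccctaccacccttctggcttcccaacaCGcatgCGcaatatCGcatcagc
Over the 50 member starts the median was 10 CpG per window, against 6 over all 32851 promoters of that length. ZFP57, a zinc finger protein that helps to keep imprints through early development, binds methylated TGCCGC. That hexamer, read on both strands as TGCCGC or GCGGCA, was in 7 of the 50 member windows (14%) and in 8.68% of all promoters, the 6 members with a match being Meg3, Zim1, Calcr, Mest, Plagl1 and Nap1l5. The deposited counts are per gene and do not say where in or near the gene the reads fell.

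Among the members of the larger clusters, the Dlk1-Meg3 domain on chromosome 12 had 1 of 5 members higher in liver and 1 lower in brain. Meg3 (chr12:109540996-109571729), a maternally expressed long noncoding RNA, had 181 and 184 CPM in frozen and FFPE brain, 205 and 211 in heart, 196 and 211 in kidney, and 308 and 288 in liver. The 6 libraries outside liver lay close together, and liver was above them by 0.59 ± 0.13 log2 (SE; limma, adjusted p = 0.00401). Rtl1, a retrotransposon-derived gene on the strand opposite to Meg3, differed by -0.57 in brain. Dlk1, a Notch-related signalling protein, and the noncoding RNAs Rian and Mirg did not pass in any organ, with log2 differences from -0.76 (Dlk1 in heart) to 0.81 (Mirg in heart). Of 43 other tested genes inside the span of the domain, among them microRNA genes, 2 were higher in liver (Mir300 and Mir370) and 1 was lower in brain (Mir323). Over all tested genes the shares were 11.8% higher in liver and 12.8% lower in brain.

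In the Peg3 domain only Peg3 passed. Usp29, a ubiquitin peptidase gene that starts beside Peg3, differed by 0.40 ± 0.17 in liver and -0.30 ± 0.17 in brain, and Zim1, a zinc finger gene, by 0.42 ± 0.15 and -0.33 ± 0.15 (SE; limma, adjusted p = 0.121, 0.215, 0.0531 and 0.115). Both had the sign of Peg3 in both organs. Whether they differ from Peg3 was not tested.

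Of Igf2 and H19, neighbours that share an imprinting control region, Igf2 alone passed, and whether they differ was not tested. Igf2 (chr7:142650768-142666816), a fetal growth factor, had 44.2 and 37.3 CPM in frozen and FFPE brain, 40 and 30.2 in heart, 24 and 26.5 in kidney, and 16.9 and 11.7 in liver. Its 2 liver libraries were the lowest of the 8, opposite to the 8 genes above. The log2 difference was -1.21 ± 0.24 (SE) in liver and 0.81 ± 0.24 in brain (limma, adjusted p = 0.00274 and 0.0281). H19, a noncoding RNA, kept between 47.4 and 70 CPM in the 8 libraries and differed by 0.01 ± 0.18 in liver and 0.27 ± 0.18 in brain (adjusted p = 0.986 and 0.287).

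In the Kcnq1ot1 domain, 3 organs were involved. Cdkn1c (chr7:143458339-143461059) had 59.6 and 54.1 CPM in frozen and FFPE brain, 33.3 and 43.7 in heart, 89.9 and 95 in kidney, and 109.8 and 136 in liver. Heart was lowest and liver highest, without overlap with the other organs at either end. Cdkn1c differed by 1.06 ± 0.17 (SE) in liver and by -1.17 ± 0.17 in heart (limma, adjusted p = 0.000474 and 0.00376). Kcnq1ot1 (chr7:143213111-143296547), the antisense noncoding RNA that silences the cluster on the paternal copy, had 733 and 636 CPM in frozen and FFPE brain, 408 and 395 in heart, 481 and 443 in kidney, and 482 and 583 in liver. Both brain libraries were above the other 6, by 0.56 ± 0.13 (adjusted p = 0.00751). The gene Kcnq1, a potassium channel gene inside whose span Kcnq1ot1 lies, was also higher in brain (1.38 ± 0.31, adjusted p = 0.00549), as was Tspan32. Kcnq1 had 32 to 131 reads against 938 to 2129 for Kcnq1ot1, so reads of Kcnq1ot1 were not all counted for Kcnq1. Reads that fall in both genes still cannot be told apart where strand is unknown.

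Phlda2 and Ascl2, placental growth regulators of the same cluster, had the lowest signal per kilobase among the short members. Phlda2 (chr7:143501545-143503145) had 0 and 0 reads in frozen and FFPE brain, 2 and 1 in heart, 0 and 2 in kidney, and 0 and 1 in liver. All 8 values were under the 3-read limit. Ascl2 (chr7:142966822-142969264) had 39 and 10 reads in frozen and FFPE brain, 7 and 7 in heart, 0 and 4 in kidney, and 5 and 0 in liver. It was at 0 in frozen kidney and FFPE liver, and frozen brain held most of its reads. The upstream window of Ascl2, at chr7:142969265-142969514 (minus strand, 19 CpG), is printed as that of a short member with low signal. The 4 windows printed above hold 5 to 14 CpG, but the other Gnas starts hold 21, 22 and 29 CpG. Whether CpG number goes with signal was not tested.
Ascl2: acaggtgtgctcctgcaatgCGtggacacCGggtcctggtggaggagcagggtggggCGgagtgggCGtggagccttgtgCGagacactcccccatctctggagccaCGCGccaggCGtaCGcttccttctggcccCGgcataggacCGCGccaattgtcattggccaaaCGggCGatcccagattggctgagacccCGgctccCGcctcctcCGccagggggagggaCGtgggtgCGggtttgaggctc
Ascl2 differed by 2.91 ± 1.15 in brain (SE; limma, adjusted p = 0.0805), which did not pass.

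The 6 genes of the Prader-Willi and Angelman domain did not pass in brain or liver. Peg12 (chr7:62461871-62464510), an intronless gene related to the Wnt signalling factor Frat1, had 26.7 and 32 CPM in frozen and FFPE brain, 10.9 and 14.7 in heart, 64.7 and 34 in kidney, and 23.1 and 20.8 in liver. The 2 heart libraries were lowest, and frozen kidney alone was far above the rest. Peg12 differed by -1.29 ± 0.28 (SE) in heart and 1.22 ± 0.28 in kidney (limma, adjusted p = 0.0273 and 0.0449), and the kidney difference fell to 0.67 without frozen kidney. Snrpn (chr7:59982495-60450177), a spliceosomal gene at the imprinting centre, had 5 and 5 reads in frozen and FFPE brain, 4 and 6 in heart, 1 and 0 in kidney, and 5 and 0 in liver. Snurf, which lies inside Snrpn, was listed at 0 reads in all 8 libraries, and so was Peg3os inside Peg3. The labels do not say how reads shared by overlapping genes were treated, so the level of Snrpn is uncertain. Magel2, Mkrn3 and Ube3a, a MAGE family gene, a ring finger gene and a ubiquitin ligase, had log2 differences between -0.58 (Magel2 in brain) and 0.70 (Magel2 in kidney).

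In the Peg10-Sgce domain Peg10 alone passed. Sgce (a sarcoglycan), Ppp1r9a (a neuronal actin-binding protein), Asb4 (an ankyrin repeat and SOCS box protein) and Calcr (the calcitonin receptor) had log2 differences from -0.49 (Calcr in heart) to 0.62 (Sgce in kidney). Of 11 other tested genes inside the span, Casd1 was higher in liver (11.8% of all tested genes) and lower in heart (1.97%), as Peg10 was. Mest (chr6:30733506-30748466), a hydrolase of the Mest-Klf14 domain, had 35.8 and 50.8 CPM in frozen and FFPE brain, 44.9 and 49.6 in heart, 100.2 and 50.6 in kidney, and 77.1 and 81.8 in liver. Frozen kidney was the highest library and frozen brain the lowest, and neither the liver nor the brain difference passed (0.60 ± 0.23 and -0.59 ± 0.23, SE; limma, adjusted p = 0.0798 and 0.0754). Klf14, a transcription factor of the same domain, did not pass either, with -0.60 in kidney the largest of its differences.

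Igf2r (chr17:12682406-12769706), the receptor that clears insulin-like growth factor 2, had 162 and 148 CPM in frozen and FFPE brain, 133 and 168 in heart, 172 and 193 in kidney, and 224 and 253 in liver. Liver was highest in both preservations, by 0.56 ± 0.14 log2 (SE; limma, adjusted p = 0.0091). Airn, the noncoding RNA that overlaps Igf2r and silences it on the paternal copy, differed by 0.24 ± 0.24 (adjusted p = 0.535). Grb10 (chr11:11930499-12037428), an adaptor that restrains insulin signalling, had 78.8 and 143 CPM in frozen and FFPE brain, 117 and 103 in heart, 178 and 142 in kidney, and 82.4 and 70.5 in liver. Both liver libraries were low and frozen brain lay between them, with a log2 difference of -0.69 ± 0.20 in liver (adjusted p = 0.0214). Rasgrf1 (chr9:89909508-90026979), a Ras exchange factor, had 110.0 and 123 CPM in frozen and FFPE brain, 107 and 113 in heart, 111 and 130.4 in kidney, and 155 and 156 in liver. The liver libraries were the highest by a small margin, and the difference of 0.43 ± 0.14 (adjusted p = 0.037) was -0.0039 after quantile normalization.

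Impact, a regulator of translation under amino acid shortage, had 24.6 and 39.1 CPM in frozen and FFPE brain, 40.7 and 48.4 in heart, 58 and 44.9 in kidney, and 50.8 and 54.9 in liver. Frozen brain was the lowest library and FFPE brain was near the hearts, and the brain difference of -0.66 ± 0.21 passed (SE; limma, adjusted p = 0.0357). Inpp5f (chr7:128611181-128696436), an inositol phosphatase, had 65 and 80 CPM in frozen and FFPE brain, 78.3 and 123 in heart, 149 and 106 in kidney, and 114 and 117 in liver. Frozen heart and FFPE brain were level, and the brain difference was -0.64 ± 0.18 (adjusted p = 0.0223). Plagl1 (chr10:13090832-13131694), a zinc finger factor of growth control, had 103 and 96.8 CPM in frozen and FFPE brain, 86 and 76.6 in heart, 129 and 74.2 in kidney, and 106 and 102 in liver. Its 8 libraries overlapped across organs and no organ passed, the differences running from -0.31 in heart to 0.17 in liver.

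Several of the genes above lie inside a host gene, and the inner and outer genes were compared, a comparison chosen with their values in view. Zrsr1 lies in Commd1, Nap1l5 in Herc3, Nnat in Blcap, Mcts2 in H13 and Peg13 in Trappc9, and these inner genes, expressed from the paternal copy, were higher in liver and lower in brain. Other paternally expressed members that lie in or overlap a neighbour varied. Peg3, which overlaps Peg3os, was also higher in liver and lower in brain, and Rtl1, which overlaps Meg3, was lower in brain. Igf2, which overlaps Igf2os, went the opposite way, lower in liver and higher in brain. Kcnq1ot1 in Kcnq1 was higher in brain and differed by 0.08 ± 0.13 in liver. Neither Airn, which overlaps Igf2r, nor Mest, which overlaps Copg2, passed in liver or brain. Usp29, Snrpn, Ndn, Magel2, Mkrn3 and Plagl1, each of which also overlaps another gene, did not pass in liver or brain either. Mest had the same signs as the inner genes above (0.60 in liver and -0.59 in brain). Mcts2, a retrogene that is no member, had 12.1 and 20.3 CPM in frozen and FFPE brain, 20.7 and 47.6 in heart, 39.5 and 47.3 in kidney, and 74.8 and 89.4 in liver, and differed by 1.55 ± 0.23 in liver and -1.61 ± 0.23 in brain (SE; limma, adjusted p = 0.000304 and 0.000336). Peg13, a noncoding RNA that is no member either, differed by 1.08 ± 0.14 in liver, -0.63 ± 0.14 in brain and -0.78 ± 0.14 in heart (adjusted p = 0.000123, 0.00526 and 0.00926). How a read in both an inner and an outer gene was treated is not stated, so the values of these pairs are uncertain. Zrsr1 had 186 to 823 reads and Commd1 0 to 35. In frozen liver Nap1l5 had 433 and Herc3 134, and Nnat 175 and Blcap 61. Reads of these inner genes were therefore not all counted for their hosts. H13 and Trappc9 had more reads than their inner genes in every library, so their counts do not show this. The hosts H13 and Trappc9 went the same way as their inner genes, whereas Herc3, a ubiquitin ligase gene, differed by -0.14 ± 0.23 in liver and 0.39 ± 0.23 in brain, and Blcap, a cell cycle gene, by -0.88 ± 0.32 and 0.51 ± 0.32, none of which passed (adjusted p = 0.711, 0.229, 0.0616 and 0.254). Commd1 (chr11:22899728-22984539), a copper homeostasis gene, had 18 and 35 reads in frozen and FFPE brain, 3 and 8 in heart, 0 and 3 in kidney, and 4 and 5 in liver. Its brain libraries were the highest, opposite to Zrsr1 within it, and the brain difference passed (2.92 ± 0.86, adjusted p = 0.025), on under 10 reads in each of the 6 other libraries.

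By parental copy, the 21 paternally expressed members had 6 higher and 1 lower in liver, and 2 higher and 7 lower in brain. The 15 tested maternally expressed members had 4 higher and 0 lower in liver, and 1 higher and 1 lower in brain. Over all tested genes the shares were 11.8% higher and 7.42% lower in liver and 8.61% higher and 12.8% lower in brain, against 28.6% and 4.76% in liver and 9.52% and 33.3% in brain for the paternally expressed members and 26.7% and 0% in liver and 6.67% and 6.67% in brain for the maternally expressed ones, so some of these counts are near the background. The other 4 (Grb10, Gnas, Inpp5f and H13), whose expressed copy depends on tissue or promoter, had 2 higher and 1 lower in liver and 3 lower in brain. The difference between these classes was not tested.

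Between FFPE and frozen tissue the members differed little. With limma 0 of 40 were higher in FFPE (0.62% of all tested genes) and 1 was lower (0.735%), with 4 at an unadjusted p under 0.05, and the median difference was 0.03 log2 (-0.02 after quantile normalization), against 0.02 over all genes. FFPE exceeded frozen in all 4 organs for 5 members (10.1% of all tested genes) and lay below it in all 4 for 4 (8.83%). Ndn (chr7:62348277-62349928), which encodes necdin, a MAGE family protein of neurons whose paternal copy lies in the Prader-Willi region, was the gene that fell. Read counts of Ndn were 83 and 24 reads in frozen and FFPE brain, 85 and 19 in heart, 100 and 40 in kidney, and 106 and 20 in liver, which correspond to 34.6 and 7.17 CPM in frozen and FFPE brain, 29.8 and 7.54 in heart, 30.4 and 18.9 in kidney, and 31 and 7.58 in liver. Every FFPE library was below every frozen library, and the fall was 3.29-fold (-1.72 ± 0.30 log2, SE; limma, adjusted p = 0.00473). By organ the FFPE minus frozen log2 differences were -2.25 in brain, -1.95 in heart, -0.67 in kidney and -2.0 in liver. The adjusted p rose past 0.05 when frozen brain (-1.54 log2), frozen heart (-1.64), FFPE heart (-1.64) or frozen liver (-1.63) was left out. The other intronless or short genes of its domain, Magel2, Mkrn3 and Peg12, had FFPE minus frozen differences of -0.04, -0.08 and -0.09, none of which passed.

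**Figure D4:**
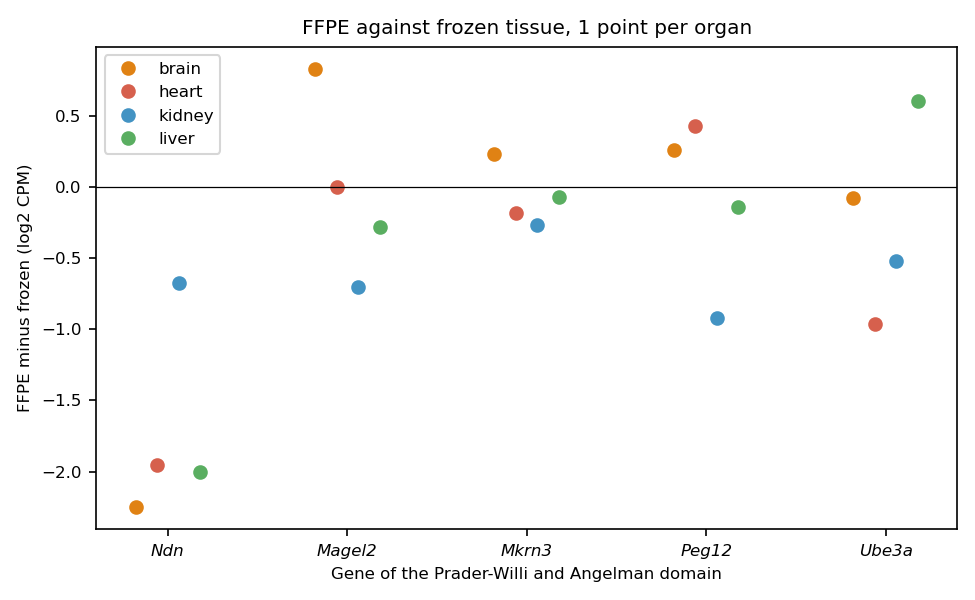
The FFPE minus frozen difference in log2 CPM (y axis) of 5 genes of the Prader-Willi and Angelman domain (x axis, Snrpn left out), with 1 point per organ. The 4 points of Ndn lie between -2.25 and -0.67, and the points of each of the other 4 genes fall on both sides of 0.

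Genes outside the member set were read by list. Of 41 tested other imprinted genes, 5 were higher and 2 lower in liver, 4 higher and 4 lower in brain, 0 higher and 3 lower in heart, 1 higher and 0 lower in kidney, and 0 either way between FFPE and frozen. These are 12.2% higher and 4.88% lower in liver and 9.76% each way in brain, near the shares over all tested genes (11.8% and 7.42% in liver, 8.61% and 12.8% in brain). Their median log2 difference was -0.21 in liver and 0.10 in brain, of opposite sign to the members' medians. Besides Peg13 and Mcts2, Casd1, a sialic acid acetyltransferase gene, was higher in liver (0.70), and Dlx5, a homeobox gene, was lower, on 1 read in each liver library against 7 to 26 in the others. In brain, Sfmbt2, a Polycomb group gene, was higher (0.73) and Wars, a tRNA synthetase gene, was lower (-0.88). Of 25 genes that maintain or set imprints, 5 were higher and 1 lower in liver (20% and 4%, against 11.8% and 7.42% of all tested genes). In brain 0 were higher and 6 lower (0% and 24%, against 8.61% and 12.8%). In heart 0 were higher and 1 lower (0% and 4%, against 0.162% and 1.97%). There were 0 either way in kidney or between FFPE and frozen. Zfp42, a pluripotency zinc finger gene, differed by 1.15 in liver and -1.02 in heart, Ehmt2, a histone H3 lysine 9 methyltransferase, by 0.78 in liver and -0.88 in brain, Ctcf, which binds unmethylated imprinting control regions, by -0.98 in brain, and Dnmt3a, a de novo DNA methyltransferase, by -0.67 in brain. Markers of other cell types were read too. Of 4 leukocyte genes, 2 were higher in brain (8.61% of all tested genes) and 1 was lower in liver (7.42%). Of 6 glial genes, 0 were higher (8.61%) and 1 (Mbp) was lower (12.8%) in brain. There 4 of the 6 glial differences were positive and their median was 0.48. The part of cell composition in the members' differences was not tested.

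The organ calls leaned on single libraries and on the scaling. Without FFPE liver 7 members were higher (3.75% of all tested genes) and 0 lower (1.9%) in liver, and without frozen liver 8 (3.97%) and 1 (2.66%). The liver calls lost in one or both cases were those of Meg3 (0.51 log2 without frozen and 0.67 without FFPE liver), Igf2r (0.59 and 0.53), Nnat (1.14 and 0.81), Rasgrf1 (0.36 and 0.51), Grb10 (-0.86 and -0.52), Peg10 (0.72 without FFPE liver) and Igf2 (-1.04 without FFPE liver). Grb10 also lost its call without frozen heart (-0.64), and Rasgrf1 without any one of the 4 brain and heart libraries (0.42 to 0.44). Without frozen brain, the brain counts were 0 higher (0.354%) and 4 lower (2.52%), and the calls of Peg3 (-0.72), Zrsr1 (-1.05) and Nap1l5 (-1.42) were the only ones of the 14 to be kept. The lost lower calls then ran from -0.28 (Rtl1) to -0.72 (H13), and the lost higher ones were Kcnq1ot1 (0.44), Igf2 (0.81) and Commd1 (2.23). FFPE brain, when left out, ended the calls of Peg10 (-0.71), Nnat (-1.06), Inpp5f (-0.76), Igf2 (0.80) and Commd1 (3.62). Calls in brain that ended without a heart or liver library were those of Igf2 (0.84 without frozen heart, 0.77 without FFPE heart, 0.75 without FFPE liver), Commd1 (2.94, 2.91 and 2.74 in the same order), Rtl1 (-0.59 without frozen heart, -0.54 without FFPE heart, -0.47 without frozen liver), Inpp5f (-0.52 without FFPE heart, -0.62 without frozen liver), Peg10 (-0.52 without FFPE heart) and Impact (-0.68 to -0.65 without either heart or either liver library). The brain count fell to 7 lower without FFPE heart (9.03%), and to 1 higher without FFPE brain, either heart library or FFPE liver. The heart calls of Gnas, Cdkn1c, Peg10 and Peg12 were lost without either heart library, with values from -0.47 to -1.63. Without FFPE liver the heart call left was that of Cdkn1c, Gnas being at -0.91, and Peg10 and Peg12 also lost theirs without FFPE brain (-0.56 and -1.21) or frozen liver (-0.63 and -1.27). The kidney call of Peg12 was lost without any one library other than FFPE kidney, at 0.67 to 1.33. Without FFPE kidney, 11 members were higher (5.86%) and 2 lower (8.71%) in kidney and 11 lower in heart (5.36%); without frozen kidney 9 were lower in heart (3.18%).

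Scaling changed the counts as well. Where the libraries were quantile normalized, which gives all 8 the same distribution, the members' median difference was 0.04 in liver and -0.06 in brain, against 0.00 and -0.01 over all genes, and 7 members were higher (4.83% of all tested genes) and 4 lower (4.81%) in liver and 5 were lower in brain (10.5%). Centring each library on its median moved the all-gene median in liver from -0.10 to 0.10 and gave 20 members higher in liver (18.6% of all tested genes) and 17 lower in brain (18.8%). The share of higher calls over all genes in liver was 61.3% as deposited, 50.1% after quantile normalization and 79.6% after centring. In brain it was 40.2%, 47.6% and 24.7%, and in heart 7.57%, 31.8% and 3.27%. The sign of the members' median was the same under the 3 scalings in each organ, but after quantile normalization the medians in liver and brain were close to 0. Among the genes called higher in liver and lower in brain, Peg3, Peg10, Trappc9 and H13 then lost the brain call. Peg10 and Trappc9 lost the liver call as well, and Zrsr1, Nap1l5, Nnat and Gnas kept both calls. When the variance was not allowed to follow the signal level, limma called 0 members in any comparison, with 12 at an unadjusted p under 0.05 in brain, 10 in heart, 6 in kidney, 12 in liver and 2 between FFPE and frozen. No gene of the whole table passed in any organ comparison under that setting.

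**Figure D5:**
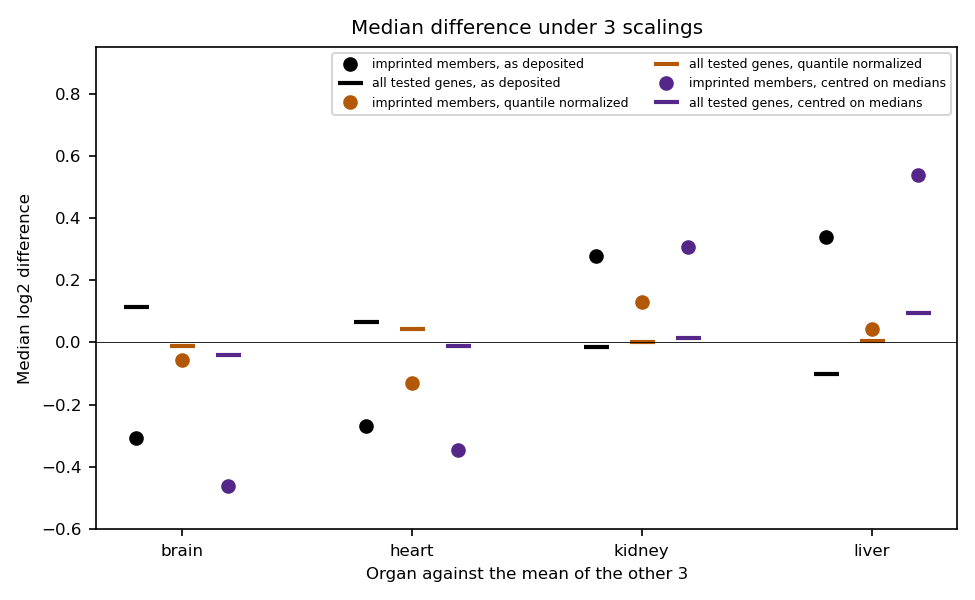
The median log2 difference between each organ and the mean of the other 3 (x axis) for the tested imprinted genes (circles) and for all tested genes (dashes), as deposited (black), after quantile normalization (orange) and after centring each library on its median (purple). In liver the members' median is 0.34 as deposited, 0.04 after quantile normalization and 0.54 after centring.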

How the data were processed

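Per the submitters' processing notes, reads were processed with Bowtie2, featureCounts and limma on mm10 (GRCm38); no source used here gives versions, the counted feature, strand or the handling of reads in overlapping genes. The authors deposited log2 CPM of 27179 genes in 8 columns. The values equal log2 of reads plus 0.5 over a scaled library size, and whole reads were recovered for 100% of values (tolerance 0.0001). Input libraries were not analysed here.

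From these values, limma 3.58.1 (R 4.3.3) fitted organ and preservation as additive terms with a variance trend, on the 25982 genes that reached 1 CPM in 2 or more libraries (1197 removed). With 1 library per group and 3 residual degrees of freedom (13.14 prior), the error is the organ by preservation interaction, and p-values measure the spread between these libraries, which may be technical. P-values were adjusted over all tested genes by Benjamini-Hochberg at 0.05. SE is the standard error of the difference. The fit was first run on simulated data without an organ by preservation interaction, so that run cannot show how reliable the calls here are.

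Every member called in a comparison is named. Values in all libraries are given for the member with the smallest p in each domain and for members called in 2 or more comparisons, set apart by more than 1 log2, or at 0 reads in any library; Ndn, Mcts2 and the host genes were added after their values were seen. Imprinted copies are textbook assignments. The members and lists were chosen with earlier results of these data known. Alternatives were other scalings, filters, added reads, weights, single preservations and leaving out each library. Coordinates are from RefSeq GRCm38.p6.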

Additional observations from a re-analysis of the deposited data

Results flagged for a closer look

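Mirg, the microRNA host RNA of the Dlk1-Meg3 domain, had 27 and 36 reads in frozen and FFPE brain, 56 and 48 in heart, 27 and 35 in kidney, and 95 and 10 in liver. Liver minus the mean of the other 3 organs was 1.17 log2 among the frozen libraries and -1.94 among the FFPE libraries, so the 2 preservations pointed in opposite ways. The difference was not tested, since each rests on 1 liver library.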

How the results depend on the processing

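Of 34 member calls, 0 were kept under all 16 tested alternatives. Without the variance trend all were lost (0 in each comparison). Leaving that setting aside, the calls of Zrsr1 and Nap1l5 in brain and of Peg3, Cdkn1c, Zrsr1, Nap1l5, Gnas and H13 in liver were kept under the other 15. Quantile normalization gave 7 members higher and 4 lower in liver, 5 lower in brain and 0 higher in kidney (0.604% of all tested genes). It turned the liver difference of Rasgrf1 to -0.0039. Centring on medians gave 20 higher and 1 lower (4.77%) in liver, 17 lower in brain and 9 lower in heart (3.31%). Adding 2 reads gave 7 lower in heart and 3 higher in kidney, and array quality weights gave 12 and 0. Voom weights on the recovered reads (chosen after seeing the data) gave 7 and 6, and no filter on low values 0 higher in kidney. Shares over all tested genes were not computed for added reads, weights or no filter, so those counts cannot be set against them. Leaving out 1 library at a time gave 0 to 4 members higher and 4 to 16 lower in brain, 0 to 11 lower in heart, 0 to 11 higher and 0 to 2 lower in kidney, 7 to 17 higher and 0 to 3 lower in liver, and 0 to 1 lower in FFPE. With 1 library left out, the shares of all tested genes were 0.354% to 18.2% higher and 2.52% to 17.1% lower in brain. They were 0.0154% to 5.36% lower in heart, and 0.0808% to 5.86% higher and 0.0115% to 8.71% lower in kidney. In liver they were 3.75% to 14.9% higher and 1.9% to 13.1% lower, and in FFPE 0.319% to 0.97% lower. Whether the members moved more than all genes was not tested. In the frozen libraries alone and in the FFPE libraries alone, which allow no test, all 33 organ calls had the sign of the joint fit. The joint difference is the mean of the frozen and FFPE differences, and its error is their disagreement. Equal signs among the calls were thus nearly fixed in advance and are no separate check. The cause of these shifts was not tested. edgeR and DESeq2 were not run, since the deposited values are log2. No paired analysis was possible because the columns carry no replicate number and each group has 1 column. The values of Phlda2, Ascl2, Snrpn and Commd1 rest on under 10 reads in at least 1 library, and why these counts are low was not tested.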
